A study of Homo sapiens with 4 samples.

Results

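The genes described here encode conjugating enzymes and carboxylesterases: UDP-glucuronosyltransferases (UGT), sulfotransferases (SULT), cytosolic and microsomal glutathione S-transferases (GST and MGST), arylamine N-acetyltransferases (NAT), thiopurine methyltransferase (TPMT) and carboxylesterases (CES). They were taken as a list of 44 symbols, and 38 of these had a probe set annotated to that gene alone, out of 19775 genes measured in that way. UGT2B7, UGT2B10, UGT2B11, SULT1A2, GSTA2 and CES3 were not analysed here. The brightest such probe set, by its mean on the 4 arrays, stood for each gene. Expression was measured on 4 Affymetrix arrays of HuH7, a human hepatocellular carcinoma line, 2 labelled KDM6B wild type and 2 labelled KDM6B knockout. KDM6B encodes a histone demethylase that removes a repressive Polycomb mark, and the series asks about its loss in lipotoxicity. Per the labels' protocols, both groups were cells of 1 line in the same serum-supplemented medium, and the knockout arose from a guide vector and a Cas9 vector, G418 selection and limiting dilution. Several knockout subclones were made, and the labels leave unstated which of them were hybridised, how the wild-type cells were handled, and whether replicates were grown apart. A p-value here reflects the spread of these 4 arrays alone, which may be technical. Loss of KDM6B and the selection of a subclone cannot be told apart.

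Conjugation attaches glucuronic acid (UGT), sulfate (SULT), glutathione (GST), an acetyl group (NAT) or a methyl group (TPMT) to a drug, steroid, bile acid or reactive compound. Glucuronic acid, sulfate and glutathione make the product more water-soluble, whereas acetyl and methyl groups mask a reactive or polar group and generally do not. Glucuronic acid, sulfate, acetyl and methyl groups come from activated donors, while glutathione itself attacks an electrophilic substrate. Many glucuronides, sulfates and glutathione conjugates leave the cell through export pumps. Carboxylesterases cleave esters and often expose the group that is then conjugated. Hepatocytes are a main site of all these reactions, and UGT2B4, SULT2A1, GSTA1 and CES1 are enzymes well known from adult liver.

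Arrays of a group correlated at 0.992 and 0.994 over all probe sets, and arrays of different groups at 0.985 to 0.989. KDM6B itself read 8.46 and 8.27 on the wild-type arrays and 7.95 and 8.14 on the knockout arrays. The log2 difference was -0.32 (SE 0.12, limma adjusted p = 0.235) and missed the threshold, so the mRNA level does not check the labels; a cut in a gene need not lower its mRNA. A gene is called here at a limma adjusted p under 0.05, with adjustment over all 19775 genes. All levels are log2 values, and all differences are knockout minus wild type on the log2 scale with the standard error (SE) of the fit.

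UGT2B4, GSTA1 and SULT2A1 fell in knockout, and MGST3, CES1, GSTO2 and GSTM3 rose. The fall of UGT2B4 was 7.81-fold, that of GSTA1 2.87-fold and that of SULT2A1 2.29-fold. MGST3 rose 2.53-fold, CES1 2.09-fold, GSTO2 1.64-fold and GSTM3 1.52-fold. Counted over the 38 measured genes, 4 rose, 3 fell and 31 missed the threshold. This is 18.4% called, where 7.07% of all genes were (3.14% higher and 3.94% lower). All 7 lay among the 25 members at or above the median brightness of all genes, and of all genes that bright 12.1% were called. The median difference over the 38 members was -0.01, against 0.01 over all genes, with 19 members above 0 and 19 below. A difference of at least 2-fold in either direction was seen for 5 members (13.2%), against 2.53% of all genes.

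**Figure D1:**
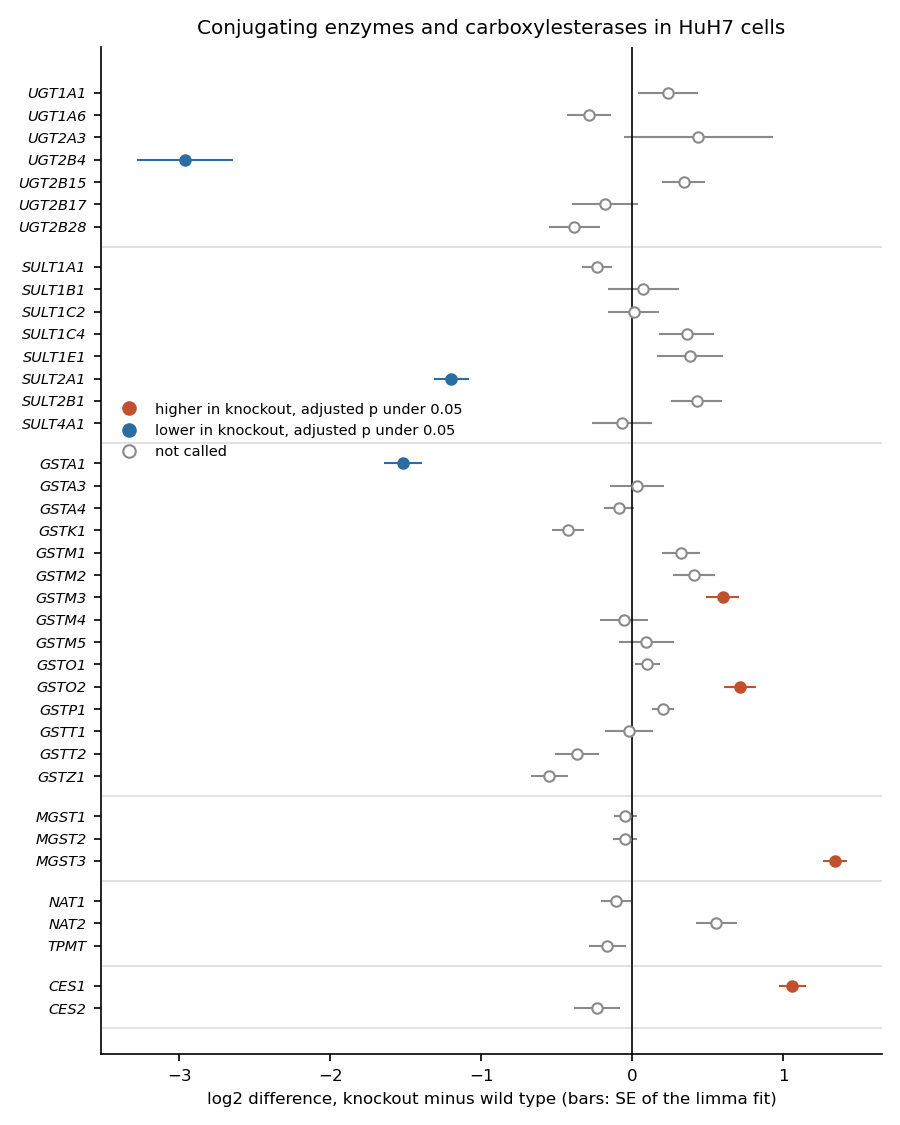
Log2 difference, knockout minus wild type, of each of the 38 measured members, ordered by enzyme family, with bars showing the SE of the limma fit. Filled points passed the test: UGT2B4 at -2.97, GSTA1 at -1.52 and SULT2A1 at -1.20 lie far to the left, MGST3 at 1.34 and CES1 at 1.06 to the right, and the 31 open points lie between -0.55 and 0.56.

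The arrays of the groups did not overlap for 12 members with knockout above and 10 with knockout below, and the groups overlapped for 16. Over all genes, 45.9% did not overlap: 22.4% had both knockout arrays above both wild-type arrays and 23.5% below. Not all calls held with 1 array left out, where fewer arrays measure the spread. The differences then ranged from -3.37 to -2.56 for UGT2B4, -1.65 to -1.38 for GSTA1 and -1.30 to -1.10 for SULT2A1. They ranged from 1.30 to 1.38 for MGST3, 1.00 to 1.12 for CES1, 0.63 to 0.80 for GSTO2 and 0.53 to 0.67 for GSTM3. Of the 7 called members, 3 were called without wild type 1 (UGT2B4, GSTA1 and MGST3), 4 without wild type 2 (those and SULT2A1), 0 without knockout 1 and 0 without knockout 2, while the signs of all 7 differences stayed the same. With 1 array left out, limma called only 37 to 192 genes in all. The 7 signs also held with arrays centred on their medians and with quantile normalization repeated.

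The UGT genes add glucuronic acid. UGT2B4, which glucuronidates bile acids and steroids, read 8.29 and 7.47 on the wild-type arrays and 4.64 and 5.20 on the knockout arrays. Both knockout arrays lay below both wild-type arrays, by more than the gap within either group. The means were 7.88 ± 0.58 and 4.92 ± 0.40 (SD, n = 2 each), a difference of -2.97 (SE 0.32, limma adjusted p = 0.0087). The knockout values exceeded the 25th percentile of their arrays (3.67 and 3.59). Whether so low a value lies above background is not known, since detection calls were not used here. UGT2B4 was read by 1 probe set, of the kind annotated without a suffix for shared sequence.

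The other 6 measured UGT genes did not pass, with differences of -0.38 to 0.44. UGT2B28, a relative in the same gene cluster of chromosome 4, read 7.05 and 6.65 in wild type, against 6.51 and 6.42 in knockout, so its knockout values were lower without passing (-0.38, limma adjusted p = 0.292). Its probe set is of the _x_at kind, which holds probes that can match other genes. UGT2B15, which glucuronidates androgens, read 4.71 and 4.77 against 5.08 on both knockout arrays, a difference of 0.34 on another _x_at probe set. UGT2B17, its close relative, and UGT1A6, which acts on small phenols, lay below the 25th percentile of every array. UGT1A1, the enzyme that conjugates bilirubin, read 3.78 to 4.35 with overlapping groups. UGT2A3 varied most within a group, reading 5.99 and 4.50 in wild type, against 5.41 and 5.95 in knockout.

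The SULT genes add sulfate. SULT2A1, which sulfates dehydroepiandrosterone and bile acids, read 8.92 and 8.72 in wild type, against 7.57 and 7.67 in knockout. Both knockout arrays were lower than both wild-type arrays, and replicates lay close together. The means were 8.82 ± 0.14 and 7.62 ± 0.07 (SD, n = 2 each), a difference of -1.20 (SE 0.12, limma adjusted p = 0.0069). A second SULT2A1 probe set read 8.63 and 8.58 against 7.27 and 7.34, a difference of -1.30.

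The other 7 SULT genes did not pass, with differences of -0.23 to 0.43. SULT1A1, the main phenol sulfotransferase, read 11.22 and 11.40 in wild type, against 11.14 and 11.01 in knockout on an _x_at probe set. That is a difference of -0.23 (limma adjusted p = 0.284), and its probe set without a suffix gave 0.07. SULT1E1, which sulfates oestrogens, read 7.84 and 7.31 in wild type, against 7.77 and 8.14 in knockout, with overlapping groups. Its second probe set, at 6.71 and 6.50 against 7.22 and 7.24, did not overlap and gave 0.63 (limma adjusted p = 0.075 over all probe sets). SULT2B1, which sulfates cholesterol and belongs to the same subfamily as SULT2A1, gave 0.43 and did not pass (limma adjusted p = 0.240). SULT1C2 showed nearly the same mean in both groups (8.56 and 8.57).

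The GST genes add glutathione, and they were called in both directions. GSTA1, an alpha class enzyme abundant in hepatocytes, read 8.66 and 8.93 in wild type, against 7.28 and 7.27 in knockout. The knockout arrays were nearly equal and both lay well below wild type. The difference was -1.52 (SE 0.13, limma adjusted p = 0.0047). The other measured alpha class genes did not pass. GSTA4, which acts on aldehydes of lipid peroxidation, read 9.51 and 9.59 against 9.54 and 9.39, and GSTA3 gave 0.03. A much dimmer GSTA4 probe set gave 0.40, also not called (limma adjusted p = 0.513 over all probe sets).

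GSTO2, an omega class enzyme with dehydroascorbate reductase activity, read 7.88 and 7.87 in wild type, against 8.68 and 8.51 in knockout. The wild-type arrays were nearly equal and both knockout arrays were higher. The difference was 0.72 (SE 0.11, limma adjusted p = 0.021), and a second probe set gave 1.15 without passing over all probe sets (limma adjusted p = 0.084). GSTO1, its neighbour on chromosome 10, read 12.98 and 13.06 against 13.17 and 13.07 and did not pass (0.10, SE 0.08).

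GSTM3, a mu class enzyme, read 7.40 and 7.37 in wild type, against 8.05 and 7.92 in knockout. The difference was 0.60 (SE 0.11, limma adjusted p = 0.036), the one nearest to the threshold among the called members. Its probe set is of the _s_at kind, which can match several transcripts, and another GSTM3 probe set gave 0.21 (limma adjusted p = 0.694 over all probe sets). GSTM3 was no longer called without the intensity trend in the variance (adjusted p = 0.066) or with the mean of both probe sets (adjusted p = 0.090). Of the other 4 mu class genes, which lie beside GSTM3 on chromosome 1, GSTM2 gave 0.41 and GSTM1 0.32 with groups that did not overlap, while GSTM4 and GSTM5 overlapped. None of these 4 passed, and all are read by _s_at or _x_at probe sets that may share signal among close relatives.

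GSTZ1, which isomerises maleylacetoacetate in tyrosine breakdown, lay just outside the threshold. It read 8.05 and 8.18 in wild type, against 7.67 and 7.47 in knockout, a difference of -0.55 (SE 0.12, limma adjusted p = 0.059). GSTK1, the kappa class enzyme of mitochondria and peroxisomes, read 9.56 and 9.53 against 9.23 and 9.02 (-0.42, limma adjusted p = 0.080). In both, the knockout arrays were the lower ones. GSTP1, the pi class enzyme that is scarce in hepatocytes and common in tumours, read 12.83 and 12.81 against 13.04 and 13.01 and did not pass (0.21, limma adjusted p = 0.194). GSTT1 and GSTT2, of the theta class, gave -0.02 and -0.37 without passing.

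The microsomal enzymes differed from one another. MGST3, a membrane glutathione transferase and peroxidase, read 11.19 and 11.27 in wild type, against 12.58 and 12.56 in knockout. It had the lowest adjusted p of the members (0.0020, limma), with a difference of 1.34 (SE 0.08). That value comes from an _s_at probe set. The other MGST3 probe sets read much lower and gave 0.19 on an _x_at set at 6.83 to 7.10 and 0.04 on a set without a suffix at 4.11 to 4.23, and neither passed. MGST1 read 12.67 and 12.59 against 12.59 and 12.57 and MGST2 11.09 and 11.03 against 11.04 and 10.98, and both had overlapping groups.

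CES1, the main carboxylesterase of liver, read 9.00 and 9.06 in wild type, against 10.15 and 10.04 in knockout. The groups were well apart and the difference was 1.06 (SE 0.09, limma adjusted p = 0.0052). Its 1 probe set is of the _s_at kind, and the related pseudogenes CES1P1 and CES1P2 lie beside the gene. CES2, the carboxylesterase prominent in intestine, read 7.76 and 7.91 against 7.78 and 7.43 and did not pass (-0.23, SE 0.15). A CES2 probe set without a suffix gave -0.54, also not called (limma adjusted p = 0.120 over all probe sets).

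NAT2, which acetylates arylamine drugs, read 7.28 and 7.10 in wild type, against 7.87 and 7.63 in knockout. Both knockout arrays were higher, and the difference of 0.56 (SE 0.14) did not pass (limma adjusted p = 0.079). It was called when quantile normalization was repeated. NAT1, its relative, read 8.32 and 8.30 against 8.26 and 8.14 and did not pass. TPMT, which methylates thiopurines, read 8.41 and 8.18 against 8.07 and 8.19, with overlapping groups.

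**Figure D2:**
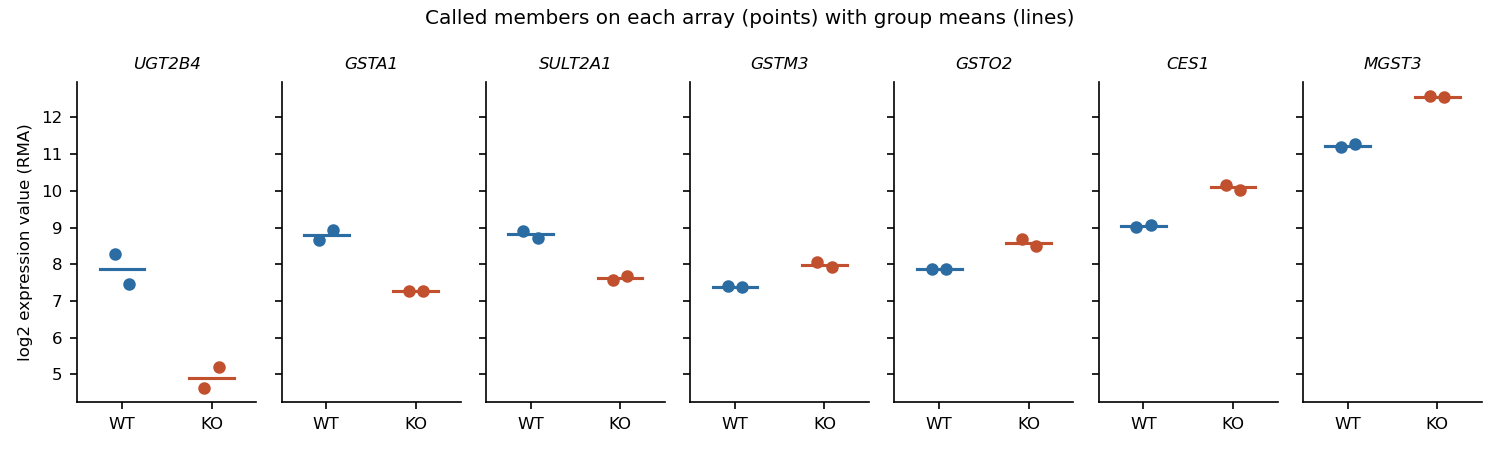
Log2 expression value on each array (points) and group mean (lines) of the 7 called members, wild type (WT) in blue and knockout (KO) in orange. No group overlaps the other; levels of different genes come from different probe sets and are not to be compared.

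Over all probe sets the members had 66, of which 7 were called (2.91% of all probe sets were). These were 1 each for UGT2B4, GSTA1, GSTO2, MGST3 and CES1 and both for SULT2A1. The brightest GSTM3 set missed the threshold in this fit (limma adjusted p = 0.058). For GSTA1, GSTM3 and MGST3, every further probe set had the sign of the brightest with a smaller difference, and none was called. The GSTA1 set of this kind read 4.99 to 5.25 on all arrays. When only probe sets without a suffix letter represented genes, 28 members could be tested. GSTO2 was then called higher and UGT2B4, SULT2A1 and GSTA1 lower, MGST3 gave 0.04 and GSTM3 0.21 without passing, and CES1 could not be tested.

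**Figure D3:**
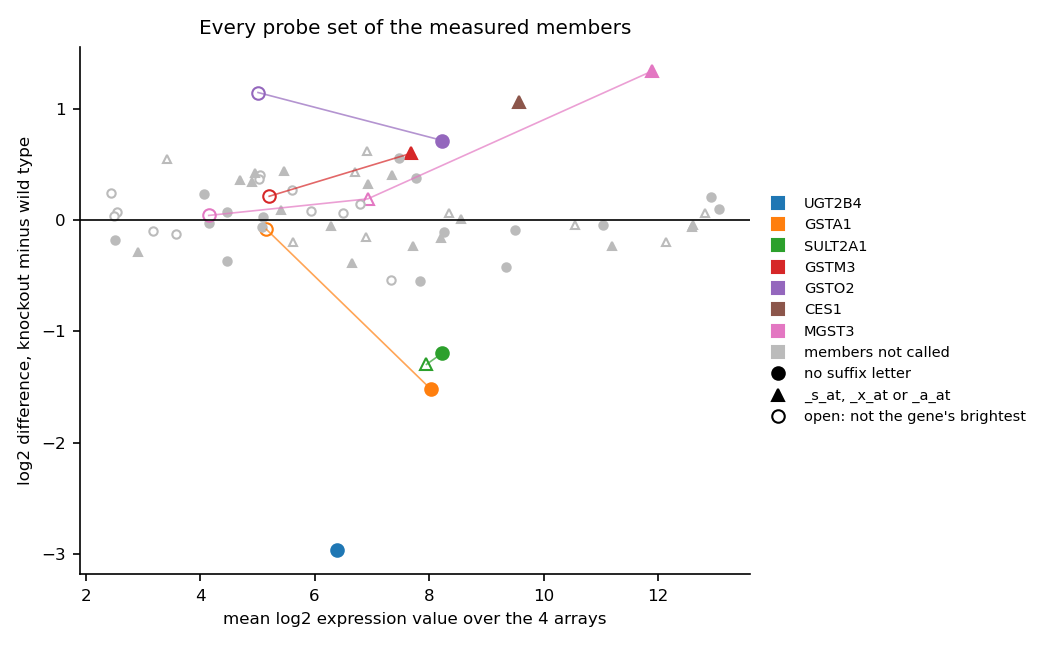
Each of the 66 probe sets of the measured members by its mean log2 value over the 4 arrays and its log2 difference, knockout minus wild type. Filled points are each gene's brightest set, triangles have a suffix letter and lines join sets of 1 called gene: the SULT2A1 sets lie at -1.20 and -1.30, whereas the dimmer sets of MGST3 and GSTA1 lie near 0 and their brightest sets at 1.34 and -1.52.

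The called members were also set beside the 5 expressed genes on either side in RefSeq order (genes at or above the median brightness). For UGT2B4 these 10 neighbours had a median difference of 0.01 and a range of -0.38 to 0.42, and 0 were called by limma. The neighbours of SULT2A1 had a median of 0.18 and those of GSTA1 of 0.10. The neighbour of GSTA1 that was called, GCLC, encodes the catalytic subunit of glutathione synthesis and fell. All 10 neighbours of MGST3 were below 0, with a median of -0.38 and 2 called lower, so MGST3 was higher in a stretch of genes that read lower. CES1 had neighbours with a median of -0.14 and GSTM3 of 0.06. For GSTO2, 9 of 10 neighbours were above 0, with a median of 0.19 and 1 called higher. GSTZ1 had 9 of 10 neighbours below 0 (median -0.33, 2 called lower). What the neighbourhood contributes to these differences was not tested.

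**Figure D4:**
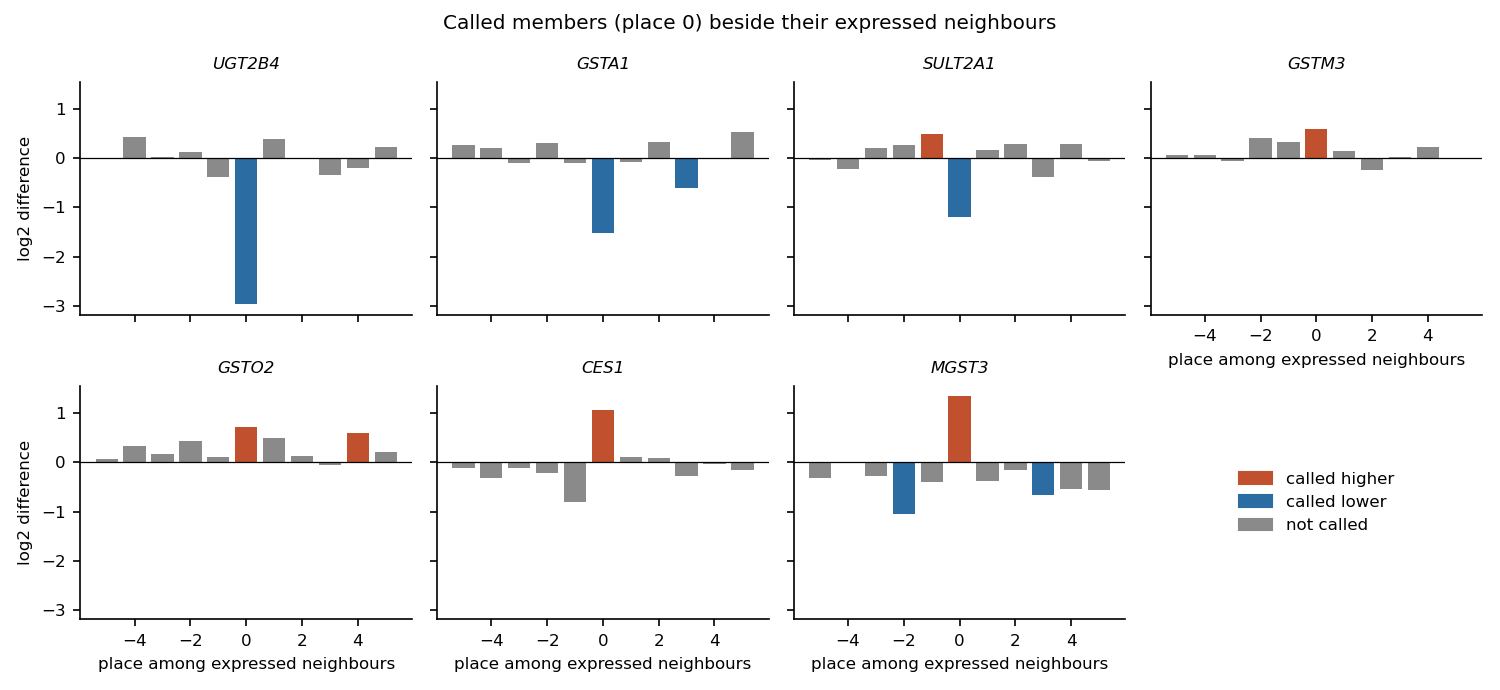
Log2 difference, knockout minus wild type, of each called member (place 0) and of the 5 expressed genes on either side, in RefSeq gene order. The bar of UGT2B4 (-2.97) stands beside neighbours between -0.38 and 0.42, and that of MGST3 (1.34) beside 10 neighbours below 0.

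Promoter sequences were at hand for 5 of the 7 called members, not for UGT2B4 and CES1. The 250 bases before the start are shown for the 3 of them that differed at least 2-fold, SULT2A1 and GSTA1 among the genes that fell and MGST3 among those that rose. They are from RefSeq, build GRCh38.p14, written along the gene's strand. Capitals mark matches, on either strand, to 4 motifs. The nuclear receptor motif searched was AGGTCA, found in 12.1% of all 35116 promoters of that length. The antioxidant response element was written TGACNNNGC and was found in 10.9%. The TATA box was TATAAA, found in 10.7%. The C/EBP core was TTGCNNAA, found in 9.05%. SULT2A1 lies at chr19:47886316-47886565 on the minus strand, GSTA1 at chr6:52803817-52804066 on the minus strand and MGST3 at chr1:165630984-165631233 on the plus strand.
SULT2A1: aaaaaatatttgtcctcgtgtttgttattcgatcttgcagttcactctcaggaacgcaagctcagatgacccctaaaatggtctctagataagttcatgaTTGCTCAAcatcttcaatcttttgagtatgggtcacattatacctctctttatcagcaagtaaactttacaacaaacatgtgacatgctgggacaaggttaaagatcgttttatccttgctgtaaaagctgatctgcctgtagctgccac
GSTA1: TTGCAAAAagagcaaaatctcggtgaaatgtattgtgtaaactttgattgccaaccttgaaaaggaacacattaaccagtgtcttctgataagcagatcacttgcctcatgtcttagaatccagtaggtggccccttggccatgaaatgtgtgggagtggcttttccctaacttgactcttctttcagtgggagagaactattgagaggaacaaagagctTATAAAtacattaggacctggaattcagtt
MGST3: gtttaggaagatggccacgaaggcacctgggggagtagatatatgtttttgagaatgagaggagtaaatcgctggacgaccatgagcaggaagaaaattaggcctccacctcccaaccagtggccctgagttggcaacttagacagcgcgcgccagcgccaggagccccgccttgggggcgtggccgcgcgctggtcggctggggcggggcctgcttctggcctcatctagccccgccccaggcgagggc
GSTA1 held a TATA box 30 to 25 bases before the start and a C/EBP core at 250 to 243 bases. SULT2A1 held a C/EBP core at 150 to 143 bases, and MGST3 held no match to any of the motifs. The matched strings do not overlap one another here. A match is a string of letters and was not shown to be a bound site. The window held 1 CpG in GSTA1, 4 in SULT2A1 and 16 in MGST3, against a median of 11 over all promoters. Of the other called members with a sequence, which both rose, GSTM3 held 1 and the separate promoters of GSTO2 held 20 and 11.

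Genes that serve conjugation were read from 7 further lists. Of 83 measured genes, 6 rose, 10 fell and 67 did not pass, so 19.3% were called, against 7.07% of all genes. At or above the median brightness of all genes lay 54 of the 83, and of all genes that bright 12.1% were called. That share is for bright genes alone, whereas the 19.3% is for all 83. In a fit over only genes that bright, 7 of the 54 rose and 9 fell, where 16.2% of all genes in that fit were called. The count of 10 that fell was 4 without the intensity trend, 5 with only probe sets without a suffix letter (72 genes tested) and 6 with the mean of all probe sets, and that of 6 that rose was 3 without the trend. Without wild type 1 the counts were 4 and 1 (higher and lower), without wild type 2 they were 2 and 1, and without knockout 1 or knockout 2 they were 0 and 0.

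Of 13 genes for cosubstrate supply, 4 fell, 0 rose and 9 did not pass, with a median difference of -0.27. GCLM, the modifier subunit of glutamate-cysteine ligase, read 10.80 and 10.45 in wild type, against 9.64 and 9.80 in knockout (-0.90, SE 0.14, limma adjusted p = 0.022). GCLC, the catalytic subunit of that enzyme, fell by 0.62, and MAT2A, which makes the methyl donor S-adenosylmethionine, by 0.60. AHCY, which clears the product of methylation, fell by 0.47. All 3 further probe sets of GCLM and GCLC that read above the array medians were below 0 without passing, and their replicates spread widely. A second MAT2A probe set gave -0.16. Of 8 related enzymes outside the members (such as UGT3A1 and GSTCD), 0 were called by limma, and 1 had an unadjusted p under 0.05 (UGT8, which glycosylates ceramide, at 1.22).

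Of 13 genes of methyl and acyl conjugation, 3 fell, 1 rose and 9 did not pass. ACSM2A, ACSM2B and ACSM3, medium-chain acyl-CoA synthetases that activate acids for conjugation with glycine, fell by 1.84, 1.25 and 0.82, although the sequences of ACSM2A and ACSM2B are near copies and their probes may share signal. BAAT, which joins bile acids to taurine or glycine, rose by 0.92, though it did not pass in the fit over all probe sets (limma adjusted p = 0.055). Among 11 other hydrolases, AADAC (arylacetamide deacetylase, a microsomal esterase) rose from 9.15 and 9.20 to 10.28 and 10.34, a difference of 1.13 (SE 0.09, limma adjusted p = 0.0038). PON1, the paraoxonase secreted by liver, fell by 1.07.

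Of 13 deconjugating genes, STS (steroid sulfatase, which removes the sulfate that SULT2A1 adds) rose by 1.17 and 12 did not pass. Its 4 probe sets were all above 0, though none passed in the fit over all probe sets (0.059 for the brightest, limma adjusted p). Of 9 efflux pumps, 2 rose, 1 fell and 6 did not pass. ABCC3, which exports glucuronides and bile salts across the basolateral membrane, read 8.56 and 8.68 in wild type, against 10.34 and 10.27 in knockout (1.69, SE 0.09, limma adjusted p = 0.0019). A second ABCC3 probe set gave 1.10 and was called, and the other 3 gave -0.04 to 0.05. ABCB1, the multidrug pump P-glycoprotein, rose by 0.85, and ABCB4, the phospholipid exporter into bile, fell by 1.33. ABCB4 did not pass in the fit over all probe sets (limma adjusted p = 0.062), and its other probe set, a dim one, gave 0.13. Of 16 regulators of such genes, CDX2, an intestinal transcription factor, rose by 0.70, CEBPB fell by 0.59 and 14 did not pass. HNF4A, NR1I2 (the pregnane X receptor) and NR1H4 (the bile acid receptor) were not analysed here.

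**Figure D5:**
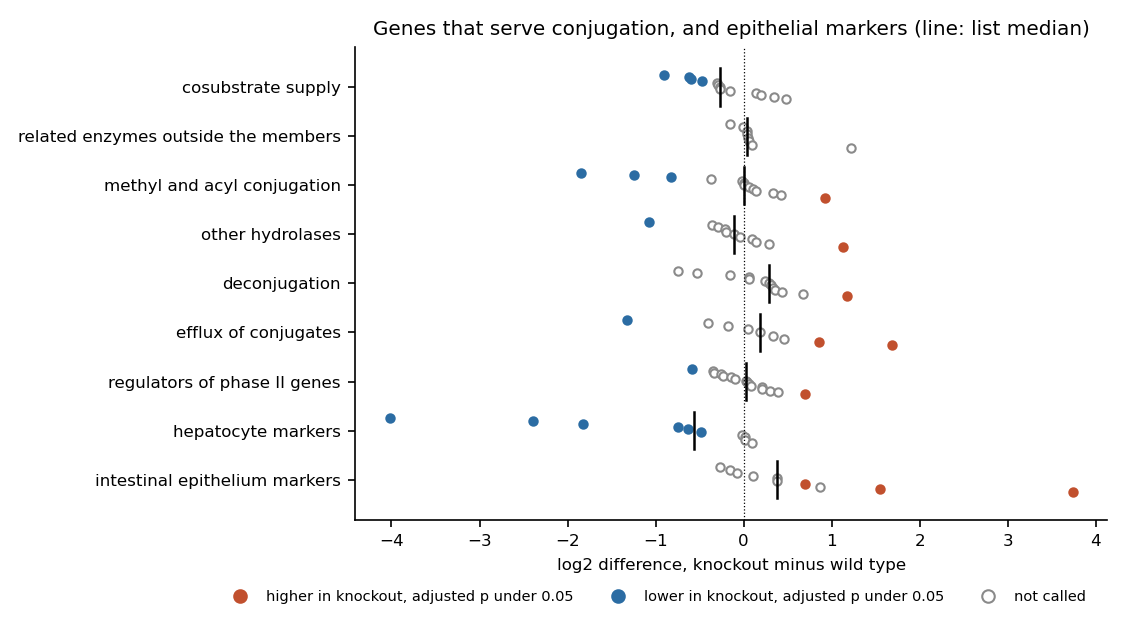
Log2 difference, knockout minus wild type, of each measured gene in 7 lists of genes that serve conjugation and in 2 lists of epithelial markers, with the median of each list as a line. Called genes are filled: cosubstrate genes are called only in the lower direction (4 of 13), and hepatocyte markers likewise (6 of 10). Of all genes, 3.94% were called lower.

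Cell type markers also differed between the groups. For comparison, 3.94% of all genes were called lower and 3.14% higher. Among genes no dimmer than the median gene, 12.1% were called in either direction. Every hepatocyte marker listed was that bright, whereas several intestinal markers were dimmer. Of 10 hepatocyte markers, 6 fell and 0 rose, with a summed log2 level of 117.0 to 118.0 over the list in wild type, against 107.1 to 107.9 in knockout. AHSG (-4.02), ASGR1 (-2.40), HP (-1.82), APOB (-0.74), FGB (-0.63) and SERPINA1 (-0.49) fell, and ALB read 13.90 and 13.70 against 13.82 and 13.96. APOA1 (-0.02), TTR (0.01) and TF (0.02) were not called. Most of the drop in the sum came from AHSG, ASGR1 and HP. Of 10 intestinal epithelium markers, CDH17 (1.55), CDX2 (0.70) and SI (3.74) rose and 0 fell, with sums of 60.9 to 61.2 and 68.1 to 68.4. On the wild-type arrays SI was dim, at 3.22 and 2.51, under the 25th percentile of each, and on the knockout arrays it reached 6.24 and 6.97, so the size of its rise and its part in the sum are uncertain. VIL1, the brightest of them, gave 0.38 (limma adjusted p = 0.055), and FABP2 lay below the 25th percentile on every array. Of 6 fibroblast markers 0 were called by limma (0 at an unadjusted p under 0.05), with sums of 27.8 to 28.7 and 28.4 to 28.8, and the brightest, COL1A1, gave 0.13. One marker fell in each of the lists for stellate cells (RELN, -1.13, 1 of 5; the brightest, DES, gave 0.39), endothelium (PECAM1, -0.88, 1 of 7) and leukocytes (LYZ, -1.58, 1 of 6). Their sums ran from 25.3 to 25.5, 30.2 to 31.7 and 35.1 to 36.8 in wild type, and from 24.4 to 24.5, 30.2 to 30.4 and 34.9 to 35.0 in knockout. LUM, LRAT, CDH5, KDR and PTPRC lay below the 25th percentile on every array. Both groups were cells of 1 line, so RELN, PECAM1 and LYZ are not read as a sign of other cell types. A single call in so short a list is not a result about its cell type. The part of these markers in the members' differences was not tested, and a change in fewer cells cannot be told apart from a change per cell.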

How the data were processed

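Per the labels, total RNA of 4 samples was amplified with an in vitro transcription kit. The authors deposited log2 expression values for 54613 probe sets, made with RMA and the affy package per the submitters' processing notes (their versions are not stated there). As a method, RMA subtracts background, equalises the intensity distributions and summarises probes by median polish, so a shift shared by most genes would be removed. The number of arrays limits the precision. Whether further arrays were normalized with these is not given. Scan dates were not used here.

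Of the probe sets, 41091 carried 1 gene symbol in the platform annotation, 1801 several and 11721 none, and 41037 were matched to RefSeq by Entrez identifier (GRCh38.p14 table, used only for names and gene order). The brightest single-gene probe set stood for each gene. Knockout was compared with wild type by limma 3.58.1 in R 4.3.3 (lmFit, eBayes with intensity trend, two-sided, Benjamini-Hochberg over all genes), with 2 residual degrees of freedom and 3.62 from the prior. With 2 arrays a group, the smallest exact permutation p is 0.333, and that test was not run. Probe sets of members were read from a second fit over all 54613. The steps were tested on simulated data.

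The members, the further gene lists and the marker lists were chosen with earlier results of these data known. Named were KDM6B, each called member, the brightest uncalled member of each family, up to 3 called genes a direction of each further list, and the brightest and each called marker. Further members are named in the text by role, chosen after their values were seen. The alternatives were probe sets without a suffix letter, the mean of all probe sets, no intensity trend, only genes at or above the median brightness, median centring, repeated quantile normalization, each array left out, and the replicate number as a block. Figures were drawn with matplotlib 3.10.9 in Python 3.11.15.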

Additional observations from a re-analysis of the deposited data

How the results depend on the processing

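The 4 members called higher became 1 with only probe sets without a suffix letter (28 members tested) and 1 with the replicate block, and 0 to 1 with each array left out. The 3 called lower became 0 to 3 with each array left out. Both counts stayed within 1.5 times under the other alternatives. Of genes that serve conjugation, the 6 called higher became 3 without the intensity trend, 2 with the replicate block and 0 to 4 with an array left out. The 10 called lower became 4 without the trend, 5 with only probe sets without a suffix letter, 6 with the mean of all probe sets, 1 with the replicate block and 0 to 1 with an array left out. Fewer genes could be tested without suffix letters and fewer arrays entered the fit when 1 was left out, where the lone array was taken to vary like the other group; otherwise the cause was not tested. Signs were followed only for the called members and the brightest uncalled member of each family. Among the latter, SULT1A1 gave 0.065 and MGST1 0.27 with only probe sets without a suffix letter, so their signs turned. MGST1 also turned, to 0.042, with the mean of all probe sets. Signs of the further uncalled members were not followed and may turn as well. GSTZ1 was called lower with the mean of all probe sets, with dim genes left out and with median centring. The median difference over members stayed between -0.07 and 0.06. Median centring moved the median of all genes by -0.03, and 40.5% of calls were then higher, against 44.3% as reported and 51.0% with repeated quantile normalization. Replicate differences of the same number correlated at -0.55 across genes, so the numbers are not read as a pairing. Wild type 1 tended to deviate with knockout 2, and wild type 2 with knockout 1. The main fit leaves out this structure shared across groups, its source was not tested, and a block of the crossed pairs was not fitted. A fit with the replicate block had 175 calls over all genes, among them UGT2B4, GSTA1 and MGST3. No detection calls were used, so differences of dim genes are uncertain in size.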

Other observations

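The UGT1A enzymes share most of their transcript, and 7 probe sets are annotated to several of them, so no value can be given to 1 gene. The annotation gives some of these sets to every UGT1A enzyme named and others to only part of them. In the fit over all probe sets, limma called 0 of the 7, and the lowest adjusted p was 0.593. The 5 that read above the array medians lay between 6.14 and 7.22 with differences of -0.19 to 0.01, and the other 2 lay between 2.66 and 3.74. Another 4 probe sets are annotated to the phenol sulfotransferase copies SULT1A3 and SULT1A4 together with neighbouring genes or readthrough transcripts. The 2 annotated also to SLX1A and SLX1B, which are not sulfotransferases, gave -0.11 and -0.12, and the other 2 gave 0.09 and 0.24. Of the 4, 0 were called (lowest limma adjusted p = 0.493).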
